A study of Homo sapiens with 6 samples.

Results

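The cadherins and protocadherins are calcium-dependent cell adhesion molecules, and 75 of the 33007 genes in the deposited RNA-seq table belong to them here. The members were chosen by their gene symbol (CDH followed by digits alone, or PCDH followed by letters or digits), and CDH1 and CDH2 were left out. By symbol they are 18 cadherins and 57 protocadherins, the latter including the pseudogenes PCDHB17P and PCDHB18P. The family was proposed with results of these data known, so counts over its members describe it and support nothing. The RNA came from LM3 cells, an established human hepatocellular carcinoma (HCC) line labelled as wild type in all 6 samples. The control group (3 samples) carried the empty vector, and the ZNF706 knockdown group (3 samples) carried a short hairpin RNA against ZNF706, a C2H2-type zinc finger protein, delivered by lentivirus with puromycin selection. Both groups are stable lines, and the labels name neither the hairpin sequenced nor whether the samples of a group were separate cultures, so every p-value measures only the spread between these samples. The question for the family was whether its transcripts differed between the knockdown and the control cells.

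Classical cadherins join neighbouring cells by binding like molecules on the opposite surface, and their tails hold the catenins that tie the junction to actin. Type I members include CDH3 (P-cadherin), which is found in epithelia, while type II members include CDH5 (VE-cadherin), the adhesion molecule of endothelial junctions. The clustered protocadherins lie in the alpha, beta and gamma arrays on chromosome 5, where each variable first exon has its own promoter, and in the alpha and gamma arrays that exon is spliced to shared constant exons. CTCF and cohesin take part in the choice of promoter in neurons. CDH1 (E-cadherin) and CDH2 (N-cadherin) are the members most often followed in liver cancer cells.

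The promoters of clustered protocadherins are known for a short conserved motif around the letters CGCT, so the 250 bases before the start of 1 gene of each cluster are shown beside those of PCDH7, the most abundant member with a promoter sequence. For the alpha and beta clusters the gene with the most counts among those with a single start was taken, and for the gamma cluster the same was done among the genes that passed the filter on low counts. The sequences are from RefSeq on GRCh38.p14, all 4 on the plus strand, written 5′ to 3′. The starts are those of RefSeq. By the deposited coordinates, the window of PCDHB14 lies inside the gene and that of PCDHA4 spans the start of the gene. Capitals mark CGCT or, on the opposite strand, AGCG.
PCDHA4 (chr5:140806818-140807067): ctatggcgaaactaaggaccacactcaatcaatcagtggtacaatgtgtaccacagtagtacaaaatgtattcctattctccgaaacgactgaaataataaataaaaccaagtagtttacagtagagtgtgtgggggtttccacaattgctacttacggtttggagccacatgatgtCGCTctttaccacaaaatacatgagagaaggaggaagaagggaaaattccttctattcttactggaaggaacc
PCDHB14 (chr5:141223093-141223342): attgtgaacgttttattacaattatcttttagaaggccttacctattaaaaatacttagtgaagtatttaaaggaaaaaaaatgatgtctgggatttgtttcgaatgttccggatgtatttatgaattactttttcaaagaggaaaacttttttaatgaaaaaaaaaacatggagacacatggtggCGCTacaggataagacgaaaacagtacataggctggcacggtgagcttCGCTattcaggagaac
PCDHGA10 (chr5:141412737-141412986): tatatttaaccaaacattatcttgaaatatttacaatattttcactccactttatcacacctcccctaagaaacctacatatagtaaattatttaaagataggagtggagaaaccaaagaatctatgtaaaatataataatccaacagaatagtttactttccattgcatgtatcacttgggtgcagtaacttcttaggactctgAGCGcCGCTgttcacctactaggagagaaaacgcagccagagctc
PCDH7 (chr4:30720119-30720368): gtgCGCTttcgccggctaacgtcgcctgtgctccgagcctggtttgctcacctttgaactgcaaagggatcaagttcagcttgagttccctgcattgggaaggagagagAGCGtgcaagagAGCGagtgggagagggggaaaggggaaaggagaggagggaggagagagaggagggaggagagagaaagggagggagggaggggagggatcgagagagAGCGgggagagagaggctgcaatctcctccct

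RefSeq promoters matched 58 of the 75 symbols, among them 7 of the members tested below. CGCT was found on either strand in 45 of the 46 promoters of cluster members (97.8%), in 25 of 28 of the other members (89.3%) and in 64.8% of all 35116 promoters of the same length. PCDHA4 had 1 match, PCDHB14 and PCDHGA10 had 2 each and PCDH7 had 4. The palindrome CACGTG, an E-box bound by MYC among other factors, was in 2 cluster promoters (4.35%), in 0 of the other members and in 6.34% of all promoters. A shortened CTCF core motif was in 1 cluster promoter (2.17%), in 0 of the other members and in 4.01% of all promoters. The median GC content of the window was 40% in cluster members, 57.4% in the other members and 58% in all promoters. A match of so few letters describes the sequence only.

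Every sample was sequenced to a similar depth. The deposited counts summed to 62684076, 64713764 and 63054445 in control samples and to 68548419, 65861994 and 69057423 in knockdown samples. The targeted gene ZNF706 had 3211, 3504 and 3357 counts in control samples and 2350, 2068 and 2298 in knockdown samples, with no overlap. Its level in the knockdown cells was 0.601 of that in the control cells, a log2 fold change of -0.73 with a standard error of 0.050 (adjusted p = 3.7e-05, edgeR quasi-likelihood fit). The keratins KRT8 and KRT18 of simple epithelia were abundant, KRT18 being between 258 and 283 FPKM. Hepatocyte markers were low, since ALB (albumin) lay between 0.50 and 3.57 FPKM.

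Control replicate 1 and knockdown replicate 3 stood apart from the other 4 samples in some genes of low count. ALB had 189 and 138 counts in these samples and between 587 and 899 in the others, and TF (transferrin) had 37 and 24 against 213 to 375. The collagen gene COL1A2 had 117 and 119 counts there and at most 8 elsewhere. Members of the family went with them, as CDH11 (OB-cadherin, a mesenchymal cadherin) had 104 and 83 counts in these samples and 0 in the other 4, and PCDH10 had 78 and 47 counts and 0 in the other 4. The pattern was not shared by every such gene. COL3A1 had 336 counts in control replicate 1 and 0 in knockdown replicate 3, and HNF4A was highest in the first of these samples (122 counts) and lowest in the second (27). APOA1 had 138 counts in knockdown replicate 3 and 0 and 4 in the other knockdown samples. Across all tested genes the deviations of the 2 samples from their group means had a correlation of -0.062. What these samples share was not tested, and a comparison of the other 4 samples, chosen after seeing the data, is given beside the results it bears on. In it CDH5 was the only one of 15 tested members that passed (6.67%), and 17 of 60 partner genes did (28.3%) in place of 20, while 15.1% of all tested genes passed. CDH2 rose by 0.57 there (adjusted p = 0.011 by edgeR). CDH24, CDH13, PCDH7, PCDH12, PCDH1 and PCDHGA12 kept positive log2 fold changes there, from 0.16 to 1.47. The cluster sums were not fitted this way.

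As a whole the family was weakly expressed, and a few genes held most of its RNA. The FPKM values of the 75 members summed to 14.6, 13.5 and 13.8 in control samples and to 15.3, 14.7 and 15.1 in knockdown samples. FPKM is the count divided by gene length and library size, so it allows levels to be compared between genes. CDH3 alone held between 40.1% and 47.5% of that sum, and CDH3, PCDH7 and CDH24 together held between 74.0% and 81.5%. A mean FPKM of at least 1 was reached by 4 members and a mean of at least 0.1 by 8. In bulk RNA, fewer cells with a transcript and less transcript per cell cannot be told apart.

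CDH3 was the most abundant member at 5.83, 6.13 and 6.23 FPKM in control samples and 6.85, 6.66 and 7.18 in knockdown samples. PCDH7, a delta protocadherin, followed with 2.86, 2.58 and 2.52 against 3.04, 2.94 and 2.82 FPKM. CDH24, a type II cadherin, had 2.08, 2.05 and 2.11 against 2.60, 2.23 and 2.26 FPKM. PCDH7 was above CDH24 in each of the 6 samples, and their ranges did not overlap within either group. CDH5 had 1.24, 1.23 and 1.28 FPKM in control samples and 0.74, 0.80 and 0.84 in knockdown samples. CDH13 (T-cadherin, held in the membrane by a lipid anchor) had 0.72, 0.65 and 0.69 against 0.78, 0.83 and 0.69 FPKM. In the control samples CDH5 therefore lay above CDH13 in every sample, while in knockdown samples their ranges overlapped. PCDH9 was next with values from 0.25 to 0.39 FPKM. CDH16 (kidney cadherin, with a short cytoplasmic tail) and CDH15 (M-cadherin of muscle) stayed at or below 0.29 FPKM in all samples.

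**Figure D1:**
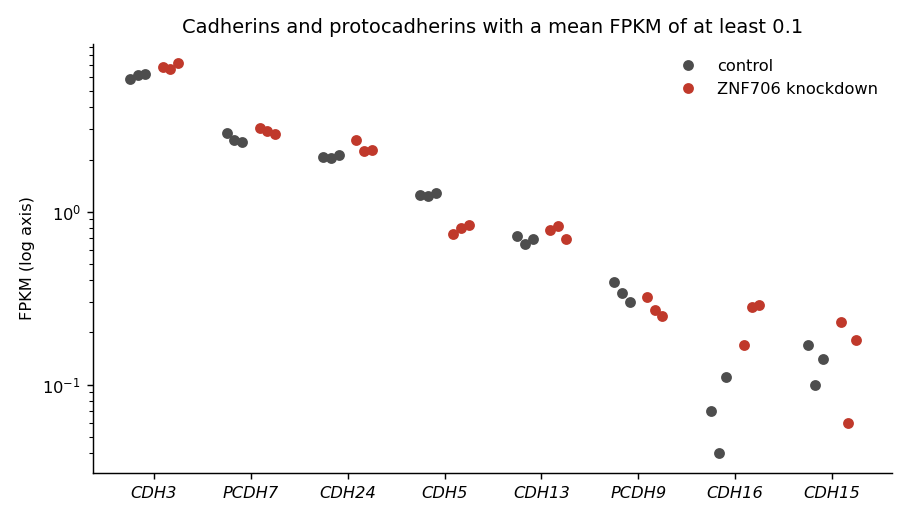
FPKM (log axis) of the 8 members with a mean of at least 0.1, each point a sample, control samples at the left and knockdown samples at the right of each gene. CDH3 is highest in both groups, and CDH5 drops from the level of 1.23 to 1.28 to that of 0.74 to 0.84, where it meets CDH13.

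Of the 75 members, 15 had enough counts to be tested (20%), compared with 18390 of all 33007 genes (55.7%). A member could pass the filter through the group in which it was high. Among the 15, 2 passed at an adjusted p below 0.05 (edgeR, quasi-likelihood), CDH16 being higher and CDH5 lower in the knockdown cells. That is 13.3% of those tested, against a background of 22.8% of all tested genes, 10.4% higher and 12.4% lower (14.9% and 8.25% with scaling to library size alone). The median log2 fold change of the 15 was 0.11, and that of all tested genes was 0.0095. The members' median was 0.022 without knockdown replicate 1, and it had the opposite sign without the filter (-0.15) and with DESeq2 (-0.14), where 71 members were fitted. When the bar was an unadjusted p below 0.05 with a log2 change of 0.3 or more in either direction, PCDH9 joined CDH5 and CDH16, so that 3 of 15 members passed where 15.5% of all tested genes did. The groups did not overlap for 6 of the 15 (40%), 5 higher and 1 lower, and for 39.4% of all tested genes, 19.7% in each direction. PCDHGA12, among the 5, passed the filter through the knockdown samples alone.

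**Figure D2:**
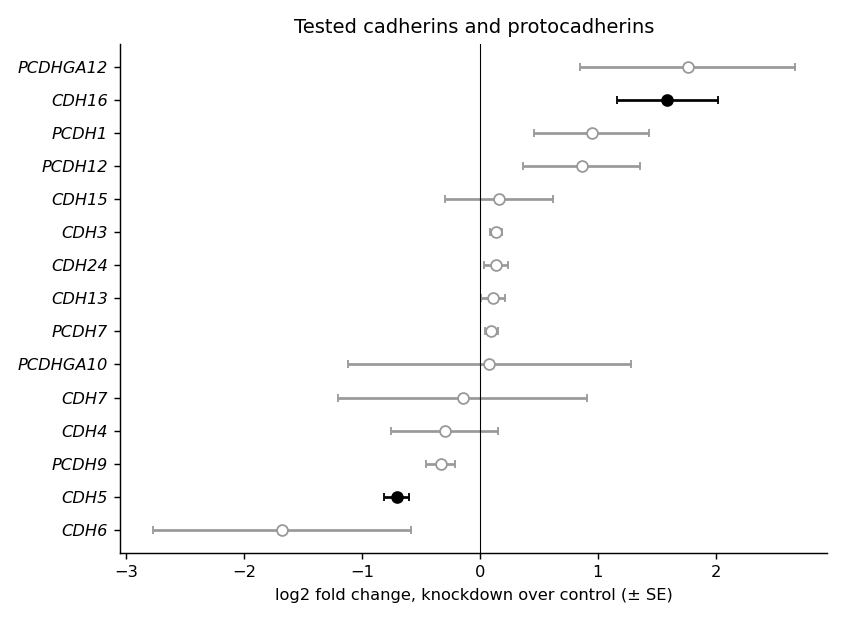
Log2 fold change (knockdown over control) with its standard error for the 15 tested members, ordered by size. Filled black points are CDH16 at 1.59 and CDH5 at -0.70, the members with an adjusted p below 0.05, and open points are the other 13.

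CDH5 fell in the knockdown cells. It lies on chromosome 16 (GRCh38, 66366622 to 66404782, plus strand, ENSG00000179776) and had 536, 553 and 561 counts in control samples and 357, 366 and 400 in knockdown samples. Every knockdown sample was below every control sample. On the CPM scale, in which counts are scaled to library size with TMM factors, the control mean was 8.83 ± 0.266 (SD, n = 3) and the knockdown mean 5.42 ± 0.314 (SD, n = 3). This was a decrease to 0.614 of the control level, or -0.70 on the log2 scale (standard error 0.105, adjusted p = 0.00135 by edgeR). Leaving out control replicate 1 and knockdown replicate 3 gave -0.76 (adjusted p = 0.012 by edgeR). No other gene of the table overlaps CDH5.

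Since CDH5 is the defining cadherin of endothelium, the other endothelial markers were read beside it. TIE1, an endothelial receptor kinase, had 0 counts in every sample. TEK, its relative, had at most 10 counts and VWF, the von Willebrand factor, at most 20 in any sample. PECAM1 was the most abundant of the 6 markers in the table, with 307, 386 and 438 counts in control samples and 423, 456 and 514 in knockdown samples, and its log2 difference was 0.15 (adjusted p = 0.54 by edgeR). CLDN5, the claudin of endothelial tight junctions, had 10, 22 and 23 against 3, 7 and 0 counts (log2 fold change -2.55, adjusted p = 0.085 by edgeR). The CPM values of the 6 markers summed to 6.98, 7.63 and 8.15 in control samples and to 7.30, 8.35 and 8.52 in knockdown samples. None of the 3 markers that could be tested passed with edgeR, at a background of 22.8%, and 1 (CLDN5) had an unadjusted p below 0.05. CLDN5 was given no adjusted p by DESeq2 and was below the FPKM limit of the limma fit. Neither of the other markers passed in those fits, in which 28.5% and 19.8% of the genes with an adjusted p did.

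CDH16 rose in the knockdown cells from a very low level. It lies on the same chromosome arm (16, 66908122 to 66918917, minus strand, ENSG00000166589) and had 20, 12 and 30 counts in control samples and 48, 78 and 82 in knockdown samples, with no overlap between the groups. The control mean was 0.333 ± 0.150 CPM (SD, n = 3) and the knockdown mean 1.01 ± 0.279 CPM (SD, n = 3), a 3.01-fold rise. On the log2 scale this was 1.59 (standard error 0.430, adjusted p = 0.025 by edgeR). The call rested on single samples. The adjusted p by edgeR was 0.063 without control replicate 1, 0.069 without control replicate 2, 0.096 without knockdown replicate 2 and 0.083 without knockdown replicate 3, and it was 0.14 without both control replicate 1 and knockdown replicate 3, with log2 fold changes that were positive in every case. No other gene of the table overlaps CDH16.

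CDH5 and CDH16 are separated by 503339 bases, which hold 21 genes of the table. Of the 12 genes there that could be tested, 2 passed (16.7%), near the background of 22.8%. DYNC1LI2, a light intermediate chain of dynein, fell by 0.22 on the log2 scale (adjusted p = 0.00328 by edgeR), and TK2, the mitochondrial thymidine kinase, rose by 0.29 (adjusted p = 0.022 by edgeR). The median log2 fold change of the 12 was -0.012. This stretch was chosen after the values of both genes were seen.

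CDH3, the P-cadherin gene next to CDH1 on chromosome 16 (68636189 to 68700292, plus strand), had 2522, 2747 and 2721 counts in control samples and 3272, 3037 and 3437 in knockdown samples. The groups did not overlap after scaling, at 40.7 to 44.3 CPM in the control and 45.3 to 49.1 CPM in knockdown samples. The log2 fold change of 0.14 (standard error 0.051) did not pass by edgeR (adjusted p = 0.084). It passed with scaling to library size alone (0.19, adjusted p = 0.020 by edgeR), and on the FPKM values, which are also scaled by library size (0.18, adjusted p = 0.039 by limma with a pseudocount of 0.1). Without control replicate 1 and knockdown replicate 3 it was 0.071 (adjusted p = 0.43 by edgeR). CDH24 (chromosome 14, 23047062 to 23057538, minus strand) had 557, 568 and 569 against 769, 630 and 668 counts. Its groups did not overlap on the CPM scale either, and the log2 difference was 0.14 (adjusted p = 0.38 by edgeR). That difference was 0.063 without knockdown replicate 1 and 0.034 with an offset for GC content.

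Among the other tested cadherins, CDH13 (chromosome 16, 82626965 to 83800640, plus strand) had 567, 529 and 547 against 677, 688 and 603 counts. Its log2 difference was 0.11 (adjusted p = 0.50 by edgeR), or 0.056 without knockdown replicate 2, and the groups overlapped. CDH15 had 57, 35 and 46 against 84, 22 and 67 counts, and CDH4 (R-cadherin) had 50, 26 and 33 against 19, 40 and 39. Their log2 fold changes were 0.16 and -0.30, each with a standard error of at least 0.45. CDH15 changed sign without control replicate 2 (-0.013) or knockdown replicate 1 (-0.20), and CDH4 without control replicate 1 (0.00083).

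CDH6 (K-cadherin, a type II member of kidney) showed how far 1 library could carry a low gene. It had 128, 0 and 30 counts in control samples and 25, 13 and 17 in knockdown samples, so the groups overlapped. The log2 difference was -1.68 (standard error 1.10, adjusted p = 0.32 by edgeR). Without control replicate 1 it was 0.11 (adjusted p = 0.96), and without control replicate 2 it was -2.27 and passed (adjusted p = 0.040, both by edgeR). CDH7 had 16, 15 and 0 against 19, 8 and 4 counts and a log2 fold change of -0.14 (standard error 1.06).

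Of the protocadherins outside the clusters, 4 could be tested and none passed by the adjusted p of edgeR, at a background of 22.8%, or of DESeq2, at a background of 28.5%. Only PCDH7 and PCDH9 were abundant enough for the limma fit, and neither passed there (background 19.8%). With edgeR 1 (PCDH9) had an unadjusted p below 0.05. PCDH7 (chromosome 4, 30720415 to 31142954, plus strand) had 2495, 2328 and 2215 counts in control samples and 2926, 2703 and 2718 in knockdown samples. After scaling the groups overlapped, and its log2 difference was 0.10 (standard error 0.058, adjusted p = 0.27 by edgeR). PCDH9 (chromosome 13, 66302834 to 67230445, minus strand), which is known from the nervous system, had 860, 773 and 678 against 782, 635 and 619 counts. Its CPM values were 13.9, 12.2 and 11.0 in control samples and 11.2, 9.47 and 8.85 in knockdown samples, so that 1 knockdown sample lay above the lowest control sample. The log2 difference was -0.33 (standard error 0.122, adjusted p = 0.079 by edgeR). It passed without knockdown replicate 1 (-0.43, adjusted p = 0.045) and was -0.17 (adjusted p = 0.43) without control replicate 1 and knockdown replicate 3, both by edgeR.

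PCDH1 had 32, 11 and 16 counts in control samples and 39, 37 and 51 in knockdown samples. The groups did not overlap, and the log2 fold change of 0.95 (standard error 0.485) had an adjusted p of 0.20 by edgeR. With single samples left out it ranged from 0.65 to 1.49. PCDH12, a protocadherin of vessels and trophoblast, had 38, 27 and 16 against 91, 41 and 32 counts and a log2 fold change of 0.86 (adjusted p = 0.26 by edgeR), which was 0.30 without knockdown replicate 1. It overlaps RNF14 on the opposite strand, a gene with a mean of 4217 counts. Whether reads were counted by strand is not given in the sources used here, so reads of the 2 genes cannot be told apart with certainty.

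**Figure D3:**
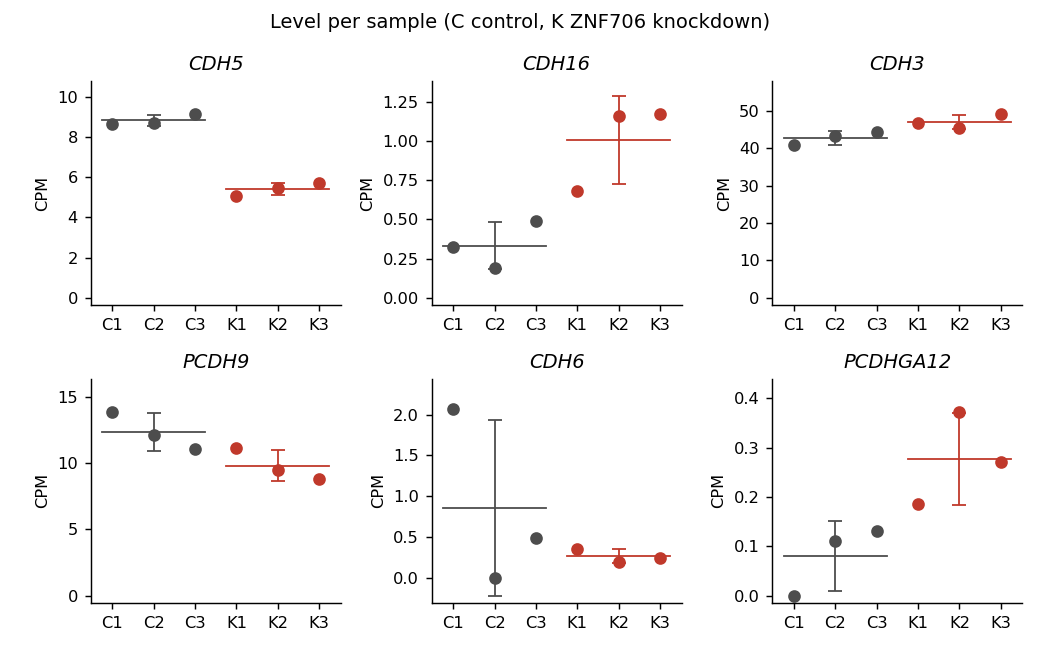
CPM per sample (linear axes) of CDH5, CDH16, CDH3, PCDH9, CDH6 and PCDHGA12, with C1 to C3 the control and K1 to K3 the knockdown samples. Lines are group means and bars the SD (n = 3). CDH5 separates at 8.66 to 9.14 against 5.09 to 5.72 CPM, while the mean of CDH6 in the control group is carried by control replicate 1 at 2.07 CPM.

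The clustered protocadherins had few counts in any sample. The 48 cluster members in the table, 10 alpha, 17 beta and 21 gamma, had 596 counts over the 6 samples, 1.19% of the counts of the whole family. The pseudogenes PCDHB17P and PCDHB18P are among the 17 beta members. Of their 288 single values, 186 were 0 (64.6%), and 279 were at most 10. No member passed 58 counts in a sample. Genes of the alpha array overlap each other, as do those of the gamma array, and share their last exons, so the split of reads among these genes is uncertain.

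Summed over a cluster, no difference passed the test. The alpha cluster had 25, 4 and 0 counts in control samples and 11, 14 and 0 in knockdown samples. The beta cluster had 25, 23 and 37 against 9, 23 and 15, and the gamma cluster had 92, 67 and 51 against 74, 71 and 55. The groups overlapped in the alpha and gamma sums. After scaling, the beta sums did not overlap, at 0.362 to 0.603 CPM in control and 0.128 to 0.343 CPM in knockdown samples. The log2 fold changes by edgeR were -0.35 (standard error 1.33, adjusted p = 0.89), -0.99 (standard error 0.531, adjusted p = 0.22) and -0.22 (standard error 0.302, adjusted p = 0.67). Without control replicate 1 the alpha sum had a log2 fold change of 1.87 and the gamma sum 0.032, so the sign of these sums depended on that library. Without knockdown replicate 3 the alpha sum was 0.23.

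PCDHGA12 and PCDHGA10 were the cluster members that passed the filter. PCDHGA12 had 0, 7 and 8 counts in control samples and 13, 25 and 19 in knockdown samples. It passed the filter through the knockdown samples alone, which by itself sets the groups apart. Its log2 fold change of 1.76 (standard error 0.913) had an adjusted p of 0.21 by edgeR. PCDHGA10, whose promoter is shown above, had 0, 30 and 2 against 20, 13 and 4 counts and a log2 fold change of 0.08 (standard error 1.20). PCDHGC3, a C-type gamma gene, had 58 counts in control replicate 1 and between 3 and 6 in the other 5 samples.

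The 60 members that were not tested included 4 with 0 counts in every sample, CDH26, PCDHGA5, PCDHGA8 and PCDHA11. At this depth a count of 0 allows up to 3 counts in a library, or 0.0434 to 0.0479 CPM by library size, and this limit covers counting error only. With these 4 included, 49 members had at most 10 counts in any sample, and 11 exceeded 10 counts in at least 1. Summed over the 60, there were 411, 64 and 107 counts in control samples and 97, 117 and 209 in knockdown samples. Control replicate 1 and knockdown replicate 3 were the highest of their groups. In control replicate 1, 28 of the 60 had a count and 19 reached their highest value there. In knockdown replicate 3 these numbers were 16 and 6.

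Other members also had their counts in few libraries. CDH19, known from Schwann cell precursors, had 35, 0 and 10 counts against 4, 3 and 0. CDH10 had 17 counts in control replicate 1 and 0 elsewhere, and CDH17 (LI-cadherin of intestine) had 20 counts in control replicate 1, 10 in knockdown replicate 2 and 0 elsewhere. Of all genes in the table, 51, 24 and 24 had at least 10 counts in 1 control sample and 0 in the other 5 samples, and 39, 41 and 52 did so for the knockdown samples. CDH23 (a cadherin of hair cell tip links) lay just below the filter with 0, 3 and 3 counts in the control and 24, 10 and 10 in knockdown samples. It overlaps VSIR on the opposite strand, which had a mean of 350 counts and a log2 fold change of -1.12. Just above the filter stood CDH7 and PCDHGA10, described above.

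**Figure D4:**
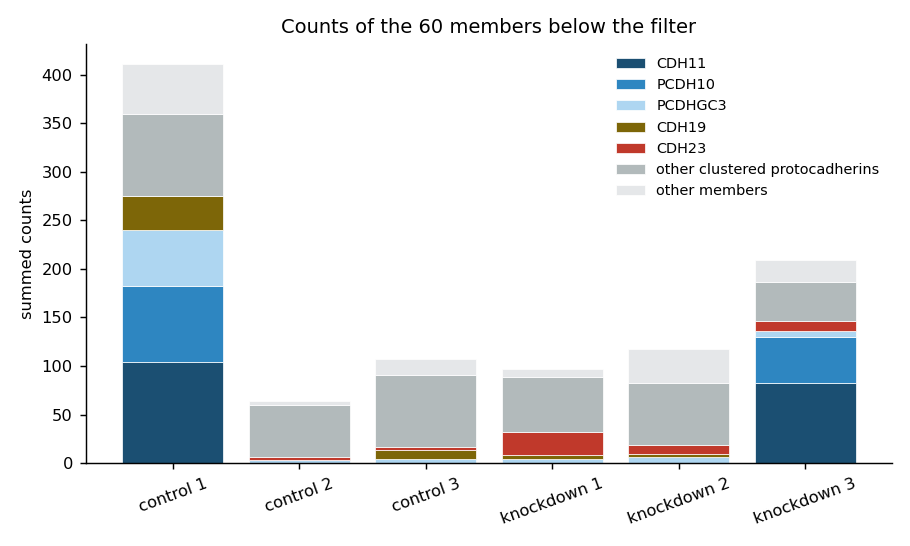
Summed counts per sample (bars from 0) of the 60 members that were not tested, split into CDH11, PCDH10, PCDHGC3, CDH19, CDH23, the other clustered protocadherins and the rest. Control replicate 1 has 411 counts and knockdown replicate 3 has 209, and CDH11 and PCDH10 are among the largest parts of both, while the other 4 samples have 64 to 117.

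CDH1 and CDH2, left out of the members, give the measure of the classical pair in the same samples. CDH2 had 856, 824 and 840 counts in control samples and 1436, 1272 and 1225 in knockdown samples. It rose without overlap, by 0.49 on the log2 scale (standard error 0.086, adjusted p = 0.0031 by edgeR). CDH1 had 162, 123 and 108 against 252, 224 and 181 counts. Its log2 difference was 0.59 (standard error 0.211, adjusted p = 0.072 by edgeR), and it passed without control replicate 1 (0.78, adjusted p = 0.038 by edgeR) and without both control replicate 1 and knockdown replicate 3 (0.91, adjusted p = 0.027 by edgeR). At 0.24 to 0.52 FPKM, CDH1 was below CDH3 in every sample.

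Of 15 tested transcripts of catenins and junction partners, which bind or neighbour cadherins at the membrane, 2 rose and 4 fell. The highest by its mean was CTNNA1 (alpha-catenin) at 75.0 to 81.4 FPKM, which fell by 0.14 on the log2 scale. It lost its call when scaled to library size alone (-0.081, adjusted p = 0.051 by edgeR) and in both limma fits on FPKM values (-0.087 and -0.086, adjusted p = 0.056 and 0.054). CTNND1 (p120-catenin, which keeps cadherins at the surface) had 20.5, 19.0 and 18.5 FPKM in control samples and 14.0, 15.9 and 13.7 in knockdown samples. It fell without overlap by 0.46 (standard error 0.056, adjusted p = 0.00053 by edgeR). JUP (plakoglobin) rose by 0.27, NECTIN1 rose by 0.32 and NECTIN3 fell by 1.01, while for CTNNB1 (beta-catenin) the value was 0.043 (adjusted p = 0.35 by edgeR). ACTN1, an actin crosslinker, fell by 0.12 and lost its call (adjusted p from 0.064 to 0.095 by edgeR) when any sample but control replicate 2 was left out. The 40% that passed compares with the background of 22.8%, which was 31.5% when a mean count of 50 was required.

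Other relatives of the family were described by the same lists. Of 14 tested members of the wider cadherin superfamily, 5 rose and 0 fell with edgeR. DESeq2 called 0 lower too among the 10 it gave an adjusted p, as did limma among the 8 abundant enough for it, where the backgrounds of lower genes were 15.1% and 7.47%. By edgeR 1 had an unadjusted p below 0.05 and a lower value. Those that rose were CLSTN1 (0.20), CELSR1 (0.24), CELSR2 (0.29), FAT4 (0.47) and CDHR4 (1.99) on the log2 scale. This was 35.7% of those tested, against the background of 22.8% (31.5% when a mean count of 50 was required). The CDHR4 counts were 14, 12 and 17 in control samples and 63, 88 and 39 in knockdown samples. Its adjusted p by edgeR was 0.0097, and 0.064 without knockdown replicate 2. FAT4 lost its call without control replicate 2 or 3 or knockdown replicate 1 or 2 (adjusted p from 0.062 to 0.077 by edgeR). Of 7 tested desmosome genes only DSP (desmoplakin) passed (14.3%), with a rise of 0.22. Of 10 genes of cadherin cleavage and turnover, the gamma-secretase genes NCSTN (0.30) and PSEN2 (0.39) rose, and RAB5A (-0.17), a GTPase of early endosomes, fell (30% of the list). Of the other gamma-secretase subunits in the list, PSENEN had a lower value of -0.34 that did not pass (adjusted p = 0.055 by edgeR), with no overlap, and APH1A had 0.053 (adjusted p = 0.36 by edgeR).

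Of 14 genes known to act on the clustered protocadherins, all tested, 5 fell and 0 rose by the adjusted p of edgeR, while 3 had an unadjusted p below 0.05 and a higher value. DESeq2 called 5 lower and 2 higher, where it called 15.1% of all genes with an adjusted p lower and 13.4% higher. Limma on the FPKM values called 3 lower and 2 higher, against 7.47% and 12.3% of all genes. The cohesin subunits STAG1 (-0.29), STAG2 (-0.21) and SMC3 (-0.21), the cohesin loader NIPBL (-0.25) and the release factor WAPL (-0.25) were the genes that fell, with their log2 fold changes. RAD21, a cohesin subunit and the most abundant gene of the list, had a higher value of 0.074 that did not pass (adjusted p = 0.059 by edgeR), with no overlap between the groups. SMC3 lost its call without knockdown replicate 2 (adjusted p = 0.068 by edgeR), and NIPBL without control replicate 1 or 3 or knockdown replicate 2 or 3 (0.050 to 0.079). CTCF had a log2 value of 0.038 (adjusted p = 0.50 by edgeR). The share of 35.7% stands beside the background of 22.8%, which includes genes of low count. When a mean count of 50 was required, the background by edgeR was 31.5%, nearer to that share. In that fit 23 of 52 tested genes of all partner lists together passed (44.2%), and the share of this list alone is not given here. None of the cluster sums given above passed.

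**Figure D5:**
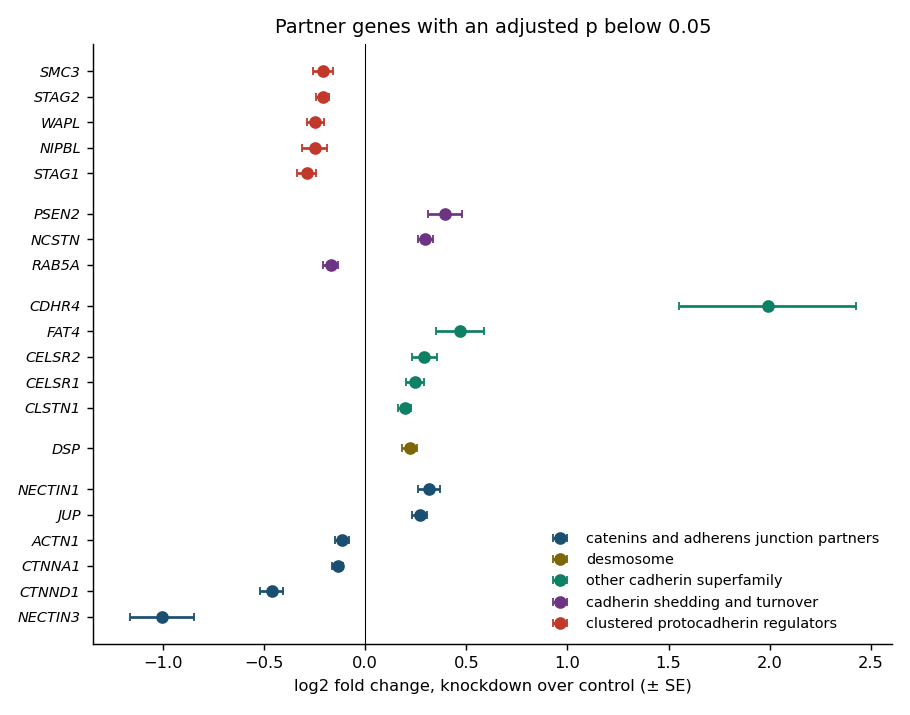
Log2 fold change (knockdown over control) with its standard error for the 20 partner genes with an adjusted p below 0.05, coloured by list. NECTIN3 at -1.01 and CDHR4 at 1.99 are the extremes, and the 5 genes that act on the protocadherin clusters lie between -0.29 and -0.21.

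Some genes of the marker lists passed, and the part of such genes in the values of the cadherins was not tested. The shares that passed, given with each list, compare with the background of 22.8%. Only the fibroblast and neuronal lists were above that background. The hepatic list (12 genes, 11 tested, ALB the most abundant) had 2 lower genes (18.2% of those tested) and summed to 15.5, 39.5 and 45.6 CPM in control samples and to 22.0, 22.7 and 9.42 in knockdown samples. They were SERPINA1 and APOB, of which APOB lost its call (adjusted p from 0.066 to 0.087 by edgeR) without control replicate 2 or 3 or knockdown replicate 1 or 3. The epithelial list (8 tested, KRT18 the most abundant) had 1 higher gene (12.5%) and sums of 2392 to 2612 CPM. The fibroblast list (6 tested of 8, COL1A1 the most abundant) had 3 higher genes (50%) and sums of 93.4 to 106 against 116 to 119 CPM. The blood list (5 tested of 7, CD68 the most abundant) had 1 higher gene (20%) and sums of 27.8 to 30.6 against 42.0 to 45.1 CPM. The neuronal list (5 tested of 10, TUBB3 the most abundant) had 3 higher genes (60%) and sums of 49.0 to 50.9 against 62.9 to 66.8 CPM, with ELAVL3 at 0 in every sample. Of the 3, SYP lost its call (adjusted p from 0.053 to 0.18 by edgeR) without any sample but control replicate 1. PTPRC, the leukocyte marker, had at most 8 counts, and no gene of the epithelial or fibroblast list was at 0 throughout.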

How the data were processed

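RNA was sequenced on an Illumina NovaSeq system. The study mapped reads with HISAT2, and the submitters' processing notes name cutadapt 1.9, FastQC and GRCh38. The counting program, its use of strand and the annotation release are not given in the sources used here. The authors deposited whole-number counts per gene, without normalization, beside FPKM values, which they divided by gene length and library size.

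Here filterByExpr removed genes of low count, TMM gave the scaling and the groups were compared over 18390 genes with edgeR 4.0.16 (quasi-likelihood test, Benjamini-Hochberg adjustment, R 4.3.3). The model held the group alone. FPKM served for levels. An exact two-sided permutation test of 3 samples against 3 has a smallest p of 0.1, so none is printed. The fit was tested on simulated data.

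The members, lists and motifs were chosen with earlier results of these data known. Named genes are ZNF706, members that passed, the 10 members of highest FPKM, the largest changes without overlap, members nearest the filter, partner genes that passed, and of the marker lists the most abundant gene and those at 0. Some genes of the partner lists are not reported here. Others were chosen after their values were seen.

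Alternatives were DESeq2 1.42.0, its size factors, library size alone, omitting the filter, requiring a mean count of 50, limma-trend 3.58.1 on log2(FPKM + 0.1) and log2(FPKM + 1) with a mean FPKM of at least 0.1, a replicate term, other call criteria and each sample left out. Added after seeing the data were leaving out control replicate 1 with knockdown replicate 3, and a GC offset from GENCODE release 29. Clusters were summed before fitting.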

Additional observations from a re-analysis of the deposited data

How the results depend on the processing

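CDH5 passed under all 16 alternatives run on it, with log2 fold changes from -0.76 to -0.33 and adjusted p from 2.3e-05 (DESeq2) to 0.012 (edgeR). CDH16 kept its direction in all 15 it could be tested in and lost its call in 8, among them no filter (adjusted p = 0.068 by edgeR) and both limma fits (0.059 and 0.061). With no filter 1 of 71 tested members was called (1.41%), where 9.55% of all tested genes passed. With a mean count of at least 50 it was 1 of 7 (14.3%, against 31.5%), and CDH16 was too low to be tested. With control replicate 1 and knockdown replicate 3 both left out it was 1 of 15 (6.67%, against 15.1%). In each of these fits 0 members were higher. Scaling by library size alone gave 2 higher members, through CDH3, where 14.9% of all tested genes were higher. The paper's criteria were applied to the p-values of edgeR, where the paper used DESeq2. They gave 2 lower members, where 5.88% of all tested genes were lower. Of 60 partner genes 8 passed them (13.3%, where 15.5% of all tested genes passed) in place of 20 (33.3%, where 22.8% passed). Over single samples left out, members called ranged from 1 to 3, higher from 0 to 1 and lower from 1 to 2, where 13.9% to 18% of all tested genes passed. The median log2 fold change of the members was -0.14 with DESeq2 and -0.15 without a filter, where 71 members were fitted in place of 15, most of them with a few counts, and 0.022 to 0.15 with single samples left out. All 20 called partner genes kept their direction, and 8 lost their call at an adjusted p below 0.05 in at least 1 alternative fit. These were CTNNA1, ACTN1, SMC3, NIPBL, CELSR2, PSEN2, CDHR4 and FAT4. The paper's criteria are not counted among those fits, and calls lost under them are not among the 8.

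No scaling alternative turned the direction of a tested member. Leaving out single samples did so for CDH15 (-0.20 to 0.54), CDH4 (-0.50 to 0.00083), CDH6 (-2.27 to 0.11), PCDHGA10 (-0.50 to 3.31), CDH7 (-0.89 to 0.32), the alpha sum (-0.97 to 1.87) and the gamma sum (-0.40 to 0.032). Without both control replicate 1 and knockdown replicate 3, CDH6 was 0.18, PCDHGA10 -0.078 and CDH7 0.71. The cause was not tested. The cluster sums were not fitted on FPKM values.

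Same-numbered samples did not deviate together (correlations over genes of 0.040, -0.014 and 0.046), so the numbers were not read as pairs. With the replicate block 2 members were lower, as PCDH9 passed (-0.33, adjusted p = 0.031 by edgeR), where 13% of all tested genes were lower. In that fit CDH7 was 0.20 and the alpha sum 0.041, and CDH1 passed (adjusted p = 0.046 by edgeR). For the members below the filter, depth limits every statement.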
